A study of Mus musculus with 96 samples.

Results

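The genes described here are 30 components of the mammalian circadian clock, taken by name from a fixed list. That list was drawn up with earlier results of these data known. All 30 were rows of the deposited table of 22709 genes, and all 30 passed the filter on low values in both tissues. They were followed in bulk RNA-seq of mouse hippocampus and prefrontal cortex, 48 libraries per tissue and 96 in all. Mice were either exposed to maternal immune activation (MIA) or born to the saline arm, were either given the CSF1R inhibitor PLX5622 (labelled PLX) or left as controls, and were male or female. CSF1R is the receptor on which microglia depend, and the inhibitor was given to target and renew these brain macrophages. Crossing the 3 factors gave 8 groups per tissue, 16 in all: 12 groups of 6 libraries, the MIA control females with 7 libraries in each tissue, and the MIA control males with 5. The labels name no immune stimulus, strain, age, inhibitor dose or schedule, litter, light cycle or time of day at collection, so the clock phase at which each animal was sampled is unknown. The labels also do not say that samples of 1 group came from separate animals, and p-values therefore measure only the spread between these samples.

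The clock is a transcriptional feedback loop that runs in nearly every cell, neurons and glia included. CLOCK or its close relative NPAS2 pairs with BMAL1, the product of Arntl, and switches on the Per and Cry genes, whose proteins in turn repress that pair. A further loop runs through Nr1d1 and Nr1d2 (the REV-ERB repressors) and Rora (a ROR activator), which set Arntl transcription, while Dbp, Tef and Hlf activate and Nfil3 represses genes with D-box sites. Arntl and Npas2 transcripts therefore usually peak at an opposite phase of the day from Per, Dbp and Nr1d transcripts, although outside the master clock of the hypothalamus the amplitude of many of these rhythms is modest. The contrast of both arms is given below as the arm difference, the mean log2 signal of Per1, Per2, Per3, Dbp, Nr1d1 and Nr1d2 minus that of Arntl, Npas2 and Clock. Its absolute size depends on transcript lengths, and only its differences between libraries are read.

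Promoter sequences are shown for 5 of the members in which a searched motif was found. Such motifs are sites through which clock genes are known to be coupled. In the RefSeq promoter table (mouse build GRCm38.p6, an older build than the one used for alignment), 25 of the 30 members had an entry. The 250 bases before each start were searched on both strands, and none of the matches overlapped. The perfect E-box CACGTG, to which BMAL1 with CLOCK binds, was present in 5 of the 25 members (Bhlhe41, Ciart, Cry1, Per1 and Tef) and in 9.07% of 13936 genes with a window of that length. The D-box, searched as TTATGTAA or TTACGTAA, was present in 2 members (Per3 and Timeless) and in 0.890% of genes. The core of the ROR and REV-ERB element, TAGGTCA, was present in 1 member (Nfil3, as its reverse complement) and in 1.94% of genes, and the cAMP response element TGACGTCA in 1 member (Hlf) and in 2.66% of genes. Arntl, Dbp, Nr1d2 and Usp2, which also varied with or against other members from library to library, had an entry but no match. A match describes these letters only and is not a measured binding site. In the lines below each sequence reads 5′ to 3′ along the gene's own strand, with the motif in capitals.
Ciart, chr3:95882242-95882369, minus strand, 3 E-boxes: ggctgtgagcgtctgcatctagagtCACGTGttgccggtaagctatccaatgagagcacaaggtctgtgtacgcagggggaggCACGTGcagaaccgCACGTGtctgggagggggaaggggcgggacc
Bhlhe41, chr6:145865543-145865598, minus strand, E-box: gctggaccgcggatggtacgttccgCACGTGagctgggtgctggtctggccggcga
Per1, chr11:69098758-69098813, plus strand, E-box: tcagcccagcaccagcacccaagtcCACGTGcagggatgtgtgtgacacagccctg
Per3, chr4:151044791-151044895, minus strand, 2 D-boxes: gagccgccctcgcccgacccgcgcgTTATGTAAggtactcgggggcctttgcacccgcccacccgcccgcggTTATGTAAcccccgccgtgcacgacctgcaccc
Nfil3, chr13:52981040-52981076, minus strand, core of the ROR and REV-ERB element on the other strand: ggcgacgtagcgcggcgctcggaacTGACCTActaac

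Values are the authors' normalized signal per gene, and libraries held 22234569 to 26689351 recovered reads in hippocampus and 22752437 to 25928320 in prefrontal cortex. Before any comparison of groups, 14 of the 48 labels stood apart in both tissues: 161 genes of ribosomal proteins and respiration took 1.15% to 1.32% of the signal in their hippocampal libraries against 0.818% to 1.01% in the other 34, and 1.12% to 1.28% against 0.781% to 1.08% in prefrontal cortex. These 14 labels included 12 of the 24 controls and 2 of the 24 PLX mice, so the split moves with the inhibitor. Among saline controls they were 4 of 6 males and 3 of 6 females, and among MIA controls 3 of 5 males and 2 of 7 females. The 2 PLX mice were a female of the MIA arm and a male of the saline arm. Results are given with all labels and with these 14 left out. The tissue labels held: of 10 hippocampal markers 9 were higher in hippocampus in saline controls (median log2 difference 3.59), and of 10 cortical markers 8 were higher in prefrontal cortex (median -1.66).

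Several clock genes differed between these 14 labels and the other 34 within groups. In a limma fit with a term for the split, 7 members were higher and 10 lower in hippocampus, against 57.3% of all genes called (28.4% higher and 28.9% lower). In prefrontal cortex 8 were higher and 11 lower, against 60.5% (30.1% higher and 30.3% lower). The share of members called was near that of all genes in both tissues. Among the lower members were Clock (log2 -0.52 in hippocampus and -0.56 in prefrontal cortex), Fbxl21 (an F-box protein that targets CRY, -0.61 and -0.57), Rora (-0.51 and -0.57), Arntl2 (the paralog of Arntl, -0.40 and -0.47) and Per3 (-0.36 and -0.39). Nfil3 (0.33 and 0.28) and the E-box repressor Bhlhe41 (0.21 and 0.24) were higher. Arntl (-0.02 and 0.02), Per1 (-0.01 and -0.02), Nr1d1 (0.04 and 0.03) and Tef (0.02 and 0.02) did not pass. Nor did Per2 (-0.16 and -0.26, limma adjusted p = 0.117 and 0.0629) or Dbp (0.13 and 0.27, limma adjusted p = 0.247 and 0.05004). Clock shows how wide the split is. Among control hippocampal libraries its signal ran from 2139 to 2527 (median 2375) in those that stand apart and from 2794 to 3857 (median 3457) in the rest, with no overlap. In prefrontal cortex the corresponding ranges were 2159 to 2703 (median 2388) and 3108 to 3908 (median 3605). The arm difference was higher by 0.13 and 0.14 in the libraries that stand apart, a shift smaller than the group differences of MIA control females described below. Of the 9 arm genes Clock differed most, beside Npas2 at -0.10 and -0.12. In the Per, Dbp and Nr1d arm only Dbp and Nr1d1 had a positive difference, and Nr1d2 was at -0.11 and -0.13.

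In untreated mice most clock genes were expressed at a lower level in hippocampus than in prefrontal cortex. Between 12 hippocampal and 12 prefrontal libraries of saline controls, limma called 21 of the 30 members, 17 lower and 4 higher in hippocampus, where 40.5% of all genes tested were called (20.9% higher and 19.6% lower). Both arms of the loop were represented among the lower members. The arm difference itself was nearly equal in the tissues (hippocampus minus prefrontal cortex -0.03 ± 0.09, SE, libraries that share a label not paired). Of the transcriptional activators, Npas2 had a signal of 572.7 to 875.1 (median 691.1) in hippocampus and of 967.9 to 1463 (median 1181) in prefrontal cortex. All hippocampal libraries lay below all prefrontal ones for this gene, a log2 difference of -0.83 ± 0.06 (limma adjusted p = 1.71e-21). Its partner gene Arntl (-0.07 ± 0.07, adjusted p = 0.473) and its paralog Clock (-0.03 ± 0.10, adjusted p = 0.853) did not pass, and Arntl2 was higher in hippocampus (0.32 ± 0.11, adjusted p = 0.0152).

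Among the repressors and output genes, Dbp ranged from 673.6 to 1614 (median 967.3) in hippocampus and from 978.8 to 1972 (median 1479) in prefrontal cortex, with overlap (-0.55 ± 0.13, limma adjusted p = 0.000175). Ciart, which encodes the CLOCK-BMAL1 repressor CHRONO, ranged from 185.8 to 394.6 (median 267.3) and from 247.5 to 643.4 (median 407.5), also with overlap (-0.61 ± 0.14, adjusted p = 0.000192). Per1, the light- and activity-induced Per gene, ranged from 1455 to 2693 (median 1934) and from 1716 to 3561 (median 2723), with a difference of -0.46 ± 0.10 (limma adjusted p = 6.89e-05). Per2 (-0.23 ± 0.12, adjusted p = 0.136) and Per3 (-0.03 ± 0.11) did not pass. Nr1d1 ranged from 1709 to 2431 (median 2066) and from 2310 to 3485 (median 2762), a difference of -0.40 ± 0.07 (limma adjusted p = 9.85e-07), and Nr1d2 differed by -0.34 ± 0.06. Cry1 (-0.54), Rora (-0.52), Hlf (-0.45), Bhlhe40 (-0.37) and Cry2 (-0.20) were also lower in hippocampus, whereas Tef (-0.02), Nfil3 (0.00) and Bhlhe41 (0.06) did not pass.

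The kinases and ubiquitin ligases that set the life of PER and CRY proteins split between the tissues, and in 3 pairs of paralogs the members did not go the same way. Prkaa1 and Prkaa2 encode the alternative catalytic subunits of AMP-activated kinase, which marks CRY1 for degradation. Prkaa2 ranged from 759.9 to 1254 (median 1045) in hippocampus and from 1433 to 2256 (median 1635) in prefrontal cortex, with no overlap (-0.80 ± 0.08, limma adjusted p = 2.40e-14). Prkaa1 went the other way, from 1013 to 1247 (median 1135) in hippocampus against 705.8 to 1057 (median 888.5) in prefrontal cortex (0.33 ± 0.05, adjusted p = 1.79e-08). Csnk1e and Csnk1d encode the casein kinases 1 epsilon and delta, which phosphorylate PER. Csnk1e ranged from 1886 to 2291 (median 2038) against 2362 to 2959 (median 2704), with no overlap (-0.40 ± 0.03, limma adjusted p = 6.07e-18), while Csnk1d was higher in hippocampus (0.20 ± 0.03, adjusted p = 1.20e-06). Btrc and Fbxw11 encode the paired beta-TrCP ligase subunits that take PER to the proteasome; Btrc was lower (-0.16) and Fbxw11 higher (0.28 ± 0.04, limma adjusted p = 6.24e-10). The deubiquitinase gene Usp2 (-0.39), Timeless (-0.37) and the kinase gene Gsk3b (-0.18, limma adjusted p = 0.0235, but 0.0554 without saline control female 3 and 0.0510 without saline control male 1) were lower in hippocampus, and Tipin (-0.06) and Fbxl21 (-0.16) did not pass.

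**Figure D1:**
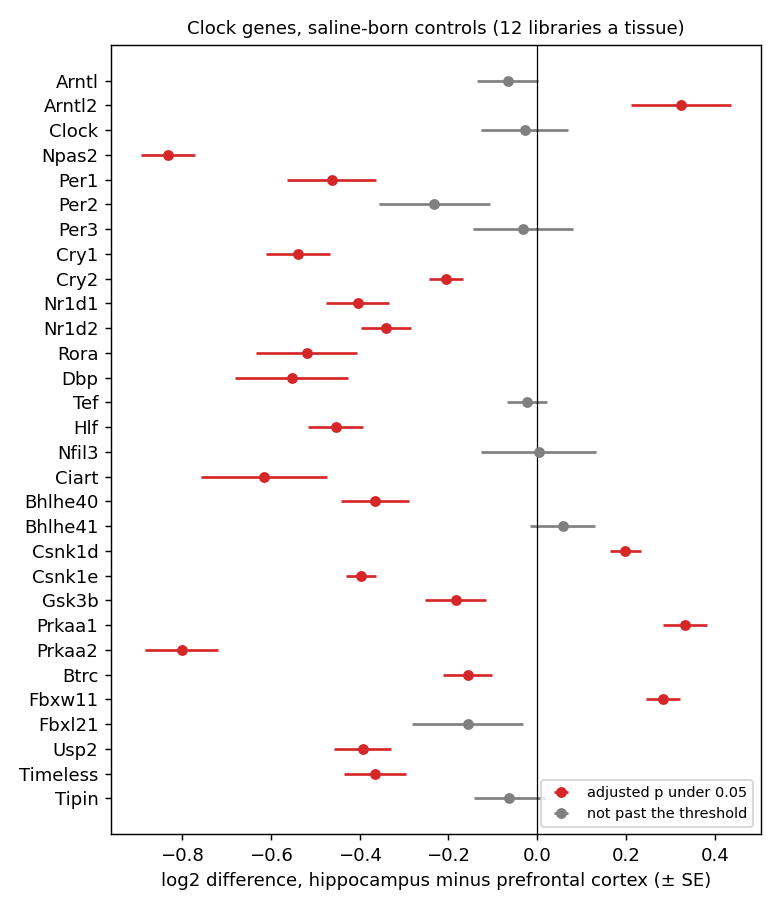
Log2 difference between hippocampus and prefrontal cortex in saline controls for each of the 30 clock genes (x axis, bars ± SE; 12 libraries a tissue; red, adjusted p under 0.05). Npas2 at -0.83 and Prkaa2 at -0.80 lie farthest left, Prkaa1 at 0.33 and Arntl2 at 0.32 farthest right.

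With the 14 labels left out, 18 members were called between the tissues, 15 lower and 3 higher, against 30.1% of genes. Cell type markers moved with the tissue as well. Of 10 astrocyte markers 7 were higher and 1 lower in hippocampus, of 10 oligodendrocyte markers 8 were higher, of 9 pan-neuronal markers 8 were lower (median -0.23), and none of 15 microglial markers was called. The summed signal of the oligodendrocyte markers had group medians of 104988 (saline control females) and 100436 (males) in hippocampus and of 82174 and 87313 in prefrontal cortex, and that of the pan-neuronal markers 217631 and 219771 against 256136 and 251585. In the same groups the summed signal of 10 striatal markers had medians of 2594 and 2427 in hippocampus. In prefrontal cortex they were 14808 and 17564, with values from 5274 to 29182. That of 10 choroid plexus markers had medians of 12940 and 11781 in hippocampus, with values up to 139120, and of 5831 and 5647 in prefrontal cortex. Slc4a5 was at 0 in at least 1 library of each tissue, and Folr1 and Kcne2 in prefrontal cortex. No other marker of these lists was at 0. The part of these markers in the clock gene differences was not tested. In bulk tissue, fewer cells of a type and less RNA per cell cannot be told apart. No member passed the limma test of a difference between the tissues in the inhibitor effect or in the MIA effect (0 called for both, against a background of 0.00%). At an unadjusted p under 0.05 there were 0, against 2.67% and 2.13% of genes, and edgeR called 0. This fit did not pair libraries that share a label (consensus correlation 0.376), so it can miss such differences. The result does not show that the effects were equal in the tissues.

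MIA control females had the arm balance that differed most from the other groups. In hippocampus their arm difference ran from -0.52 to 0.64 with a median of 0.09, while the medians of the other 7 groups lay between 0.42 and 0.61. In prefrontal cortex it ran from -0.18 to 0.64 with a median of 0.07, and the other medians lay between 0.37 and 0.68. In saline control females the values were 0.33 to 0.77 (median 0.60) in hippocampus and 0.06 to 0.90 (median 0.64) in prefrontal cortex, so the groups overlap in both tissues. Of the 5 lowest among the 48 labels, 4 were MIA control females in hippocampus and 3 in prefrontal cortex, and 3 labels were among the lowest 5 in both. The difference, MIA minus saline in control females, was -0.48 ± 0.11 in hippocampus and -0.41 ± 0.14 in prefrontal cortex. With the 14 labels left out it was -0.53 and -0.31, and with a term for the split -0.45 and -0.38.

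**Figure D2:**
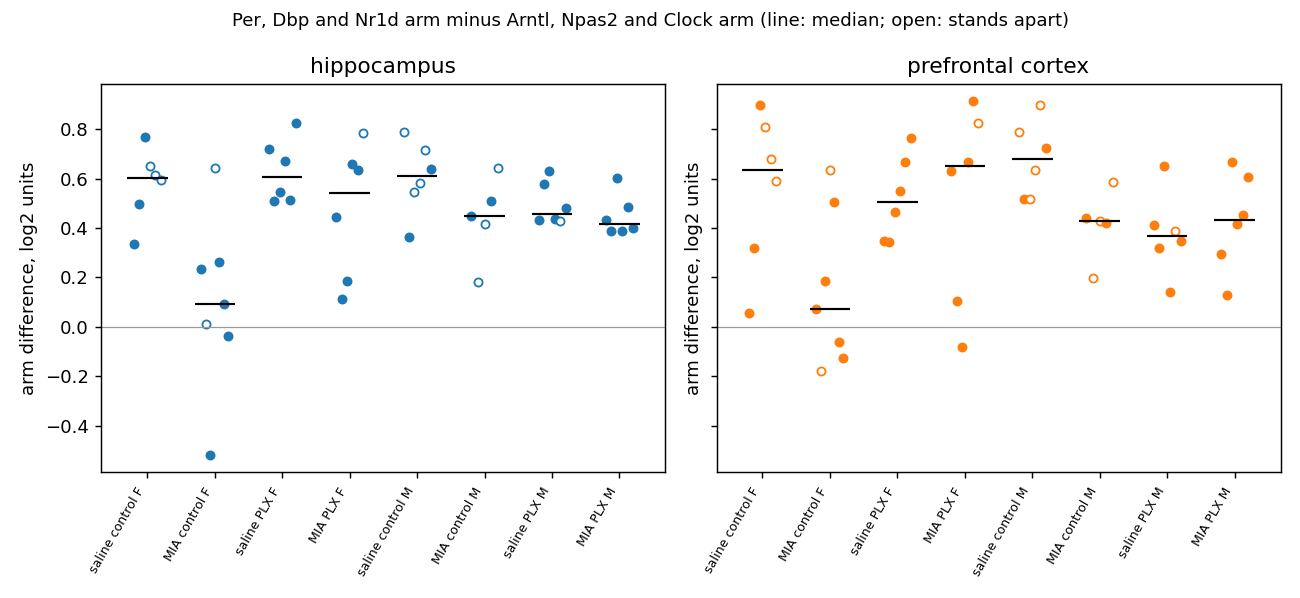
Arm difference (y axis, log2 units) of each library by group in hippocampus and prefrontal cortex, with the group median as a line and libraries that stand apart as open points. The MIA control females have medians of 0.09 and 0.07, below those of every other group, and 1 of their 7 libraries in each tissue lies at 0.64.

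No single member passed the limma threshold between MIA and saline control females in either tissue (0 of 30; background 0.00502% of genes called in hippocampus and 0.00% in prefrontal cortex). At an unadjusted p under 0.05, 2 members were higher and 6 lower in hippocampus, against 3.07% and 3.34% of all genes, and 2 were higher and 7 lower in prefrontal cortex, against 2.20% and 2.80%. EdgeR called 0 members in both tissues. DESeq2 called 3 members in hippocampus, Arntl and Nfil3 higher and Dbp lower, among 15 genes in all, and 0 in prefrontal cortex. Arntl in hippocampus ranged from 639.1 to 768.4 (median 691.7) in saline control females and from 701.3 to 1126 (median 897.4) in MIA control females, a log2 difference of 0.37 ± 0.08 (limma adjusted p = 0.117). In prefrontal cortex the ranges were 688.5 to 874.1 (median 710.5) and 714.1 to 1075 (median 1018), with a difference of 0.35 ± 0.10 (limma adjusted p = 0.713). The groups overlapped for Arntl in both tissues, with all MIA libraries above the saline median.

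Dbp, which is transcribed directly from E-boxes, had the opposite sign. In hippocampus it ranged from 884.5 to 1614 (median 1032) in saline control females and from 479.1 to 962 (median 686.2) in MIA control females (-0.66 ± 0.15, limma adjusted p = 0.141). In prefrontal cortex it ranged from 978.8 to 1972 (median 1474) and from 788 to 1528 (median 855.2), with a difference of -0.53 (adjusted p = 0.811). Per3 ranged from 1051 to 1667 (median 1411) and from 650.9 to 1124 (median 1079) in hippocampus (-0.53 ± 0.15, limma adjusted p = 0.370), and differed by -0.38 in prefrontal cortex (adjusted p = 0.877). In hippocampus the groups overlapped between 884.5 and 962 for Dbp. For Per3 they overlapped between 1051 and 1124, and the MIA median of 1079 lay within that range. The remaining genes of that arm had smaller or mixed differences: Per2 -0.22 and -0.50, Nr1d2 -0.19 and -0.19, Nr1d1 -0.15 and -0.12, and Per1 0.23 and 0.17, in hippocampus and prefrontal cortex respectively. Clock (0.19 and 0.19) and Npas2 (0.11 and -0.08) completed the other arm.

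Nfil3, which represses D-box genes and is itself a target of REV-ERB, had a higher level beside Arntl. It ranged from 147.5 to 219 (median 169.3) in saline and from 200.9 to 330.9 (median 287.1) in MIA control females in hippocampus (0.64 ± 0.15, limma adjusted p = 0.185). In prefrontal cortex the ranges were 168 to 203.8 (median 187.8) and 204.1 to 394.6 (median 308.5), which do not overlap, with a difference of 0.65 ± 0.19. Ciart differed by -0.46 in hippocampus and by -0.49 in prefrontal cortex, Bhlhe41 by -0.29 and -0.39, and Tef by -0.17 in hippocampus. None of them passed the threshold. With a term for the split, limma called Nfil3 (0.71, adjusted p = 0.0206) and Per3 (-0.61, adjusted p = 0.0376) in hippocampus, against 0.0502% of genes, while Arntl stood at 0.37 (adjusted p = 0.0704) and Dbp at -0.63 (adjusted p = 0.114). With the 14 labels left out 0 members were called in either tissue.

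**Figure D3:**
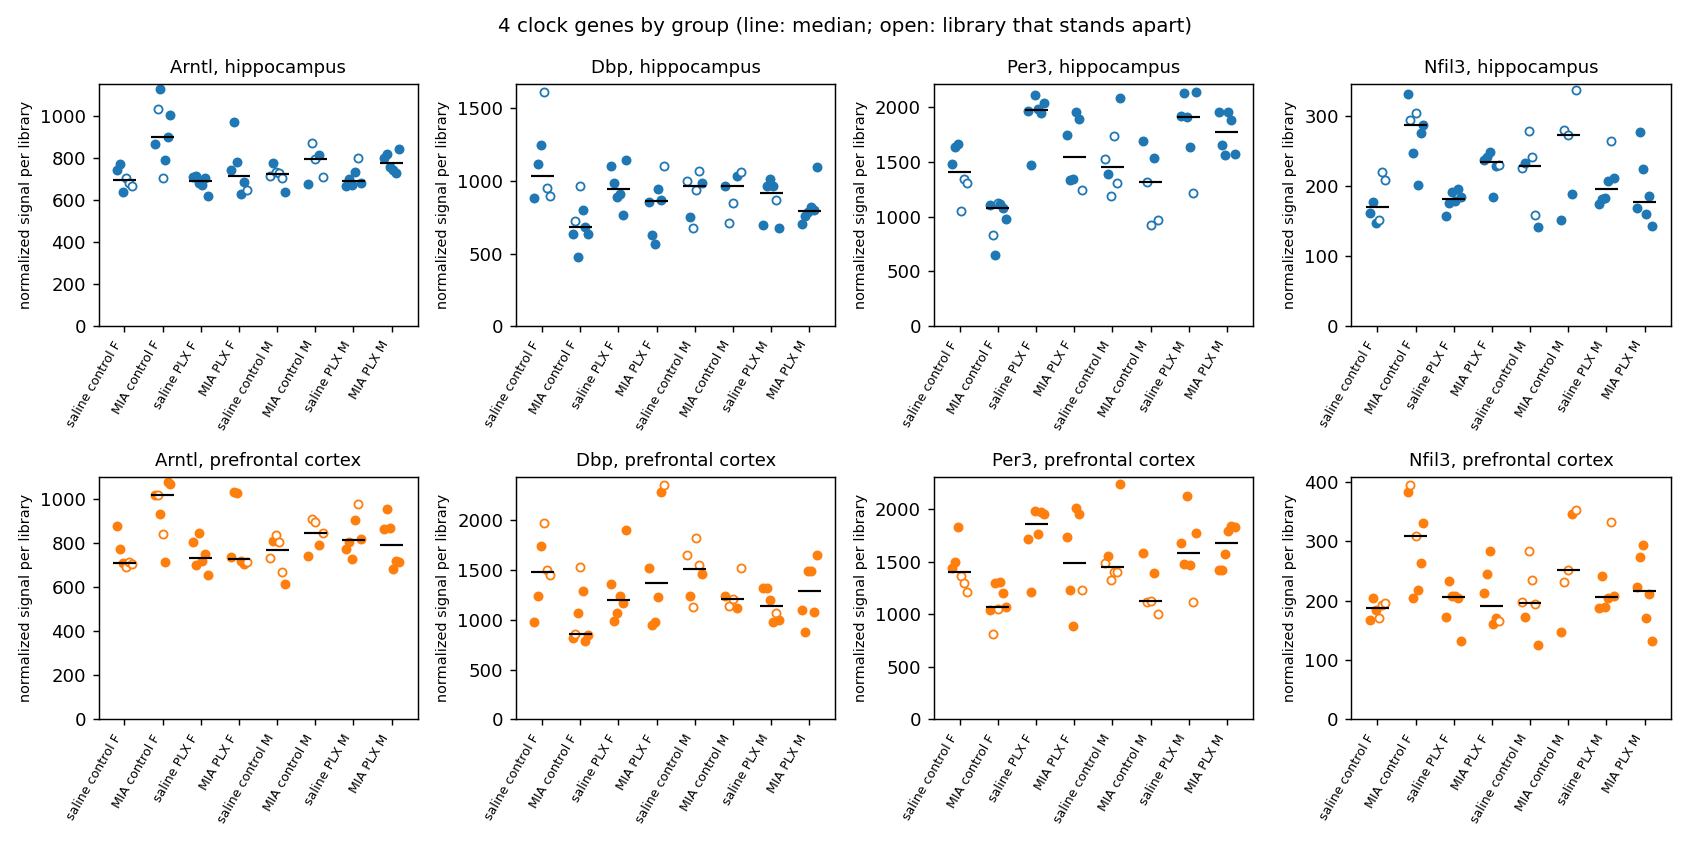
Normalized signal per library (y axis) of Arntl, Dbp, Per3 and Nfil3 in the 8 groups of each tissue, with medians as lines and libraries that stand apart as open points. In hippocampus the MIA control females have a median of 897.4 for Arntl, 686.2 for Dbp, 1079 for Per3 and 287.1 for Nfil3, and the same group in prefrontal cortex has 1018, 855.2, 1070 and 308.5.

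Other gene groups were read in the same females, and none of their members was called. Of 21 immediate early genes, which neurons transcribe on activation, 20 had a positive difference in hippocampus (median 0.45, against -0.00 over all genes) and 21 in prefrontal cortex (median 0.66, against 0.01). Limma called 0 of them, with 12 and 17 at an unadjusted p under 0.05. Of all genes, 3.07% were higher and 3.34% lower at that threshold in hippocampus, and 2.20% and 2.80% in prefrontal cortex. All 10 choroid plexus markers had a positive difference in hippocampus (median 0.40, 0 called). Their summed signal ran from 5861 to 91016 (median 12940) in saline and from 5842 to 65253 (median 23886) in MIA control females, with Slc4a5 at 0 in at least 1 library. All 15 microglial markers had a negative difference in hippocampus (median -0.13, 0 called), and their summed signal ran from 11631 to 17760 in saline and from 11231 to 14591 in MIA control females, with no marker at 0. The part of these genes in the clock gene differences was not tested.

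In males the same comparison gave smaller differences. MIA control males minus saline control males had an arm difference of -0.17 ± 0.12 in hippocampus and -0.27 ± 0.15 in prefrontal cortex. Limma called 0 members in both, against 0.00% of genes, with 1 member and 0 members at an unadjusted p under 0.05 (2.38% and 2.56% of genes). The members with the smallest p were Ciart (-0.40), Per3 (-0.27) and Prkaa1 (-0.11) in hippocampus and Per3 (-0.33), Cry1 (-0.21) and Tef (-0.14) in prefrontal cortex. The test of the difference between the sexes in controls called 0 members in either tissue (background 0.00% in both; 3 and 0 at an unadjusted p under 0.05, against 3.67% and 2.04% of genes), with Dbp at -0.70, Prkaa1 at 0.22 and Arntl at 0.27 in hippocampus (limma adjusted p = 0.995 each) and Bhlhe41 at -0.25, Arntl at 0.17 and Fbxl21 at 0.29 in prefrontal cortex. The arm difference of that contrast was -0.31 ± 0.16 in hippocampus and -0.14 ± 0.21 in prefrontal cortex. The data therefore do not show that the sexes differed. Averaged over sex and inhibitor, MIA minus saline gave an arm difference of -0.21 ± 0.06 in hippocampus and -0.16 ± 0.07 in prefrontal cortex, and limma called 0 members (background 0.00% in both). At an unadjusted p under 0.05, 10 members in hippocampus stood against 4.76% of genes, and 9 in prefrontal cortex against 5.96%. The smallest p belonged to Arntl (0.18, adjusted p = 0.268), Per3 (-0.28, adjusted p = 0.417) and Nfil3 (0.27, adjusted p = 0.616) in hippocampus. DESeq2 called Arntl there, among 10 genes in all. In prefrontal cortex they were Cry1 (-0.15), Per3 (-0.23) and Arntl (0.15), each with a limma adjusted p over 0.7.

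In MIA females given the inhibitor, the arm balance lay near that of saline controls. Their arm difference ran from 0.11 to 0.78 (median 0.54) in hippocampus and from -0.08 to 0.91 (median 0.65) in prefrontal cortex. Inhibitor minus control in MIA females was 0.37 ± 0.11 and 0.36 ± 0.14, or 0.40 and 0.33 with the 14 labels left out. The 7 MIA control females of each tissue enter both this comparison and the MIA comparison above, so opposite signs in the 2 comparisons are not independent of each other. Limma called 0 members (background 0.00502% in hippocampus and 0.0252% in prefrontal cortex); at an unadjusted p under 0.05, 6 were higher and 2 lower in hippocampus against 4.86% and 2.85% of genes, and 7 higher and 3 lower in prefrontal cortex against 4.02% and 3.57%. EdgeR called 0 members in both tissues. DESeq2 called Per3 and Tef, both higher, in hippocampus, among 7 genes in all (0.0351%), and 0 members in prefrontal cortex.

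Per3 had the smallest p of the members in hippocampus. It ranged from 650.9 to 1124 (median 1079) in MIA control females and from 1240 to 1957 (median 1547) in MIA PLX females, with no overlap (0.69 ± 0.15, limma adjusted p = 0.152). With the 14 labels left out it was the single gene called among 19689 tested (0.76, adjusted p = 0.0357), and with a term for the split it was called as well (0.65, adjusted p = 0.0377). Per2 differed by 0.52 ± 0.14 in hippocampus (limma adjusted p = 0.253). In prefrontal cortex Per2 ranged from 387.4 to 1545 (median 839.4) in controls and from 1072 to 2002 (median 1428) under the inhibitor (0.76 ± 0.19, limma adjusted p = 0.195). Arntl had the other sign, with 629 to 970.1 (median 710.9) in hippocampus of MIA PLX females (-0.31 ± 0.08, limma adjusted p = 0.253) and a difference of -0.22 in prefrontal cortex. Tef, a D-box activator, differed by 0.24 ± 0.05 and 0.23 (adjusted p = 0.152 and 0.368). The other arm genes had differences of 0.23 and 0.54 for Dbp, 0.21 and 0.17 for Nr1d2, 0.09 and 0.14 for Nr1d1, 0.03 and 0.13 for Per1, 0.07 and 0.05 for Clock, and 0.00 and 0.16 for Npas2. Per3 in prefrontal cortex differed by 0.40, Bhlhe41 by 0.36 and Nfil3 by -0.53.

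The same lists were read in the inhibitor comparison of MIA females, with 0 members called. Of 21 immediate early genes 1 had a positive difference in hippocampus (median -0.47) and 2 in prefrontal cortex (median -0.36). In each tissue 0 were called and 6 were lower at an unadjusted p under 0.05, against 2.85% and 3.57% of all genes. None of the 10 choroid plexus markers had a positive difference in hippocampus (median -0.95, 0 called), and their summed signal in MIA PLX females ran from 4519 to 43149 (median 15558). In prefrontal cortex all 10 striatal markers had a positive difference (median 0.58, 0 called), with a summed signal of 4840 to 17245 in control and 6112 to 36444 in inhibitor-treated MIA females and none at 0. Their part in the clock gene differences was not tested. The test of whether the inhibitor effect differed between MIA and saline females called 0 members in either tissue (background 0.00% in both; 3 and 3 at an unadjusted p under 0.05, against 2.86% and 3.08% of genes). Its smallest p values belonged to Tef (0.18), Arntl (-0.27) and Bhlhe41 (0.26) in hippocampus (limma adjusted p = 0.933 each) and to Dbp (0.74), Bhlhe41 (0.42) and Nfil3 (-0.57) in prefrontal cortex (adjusted p = 0.870 each). Its arm difference was 0.32 ± 0.16 and 0.40 ± 0.20.

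Averaged over prenatal treatment and sex, Per2, Per3 and Clock were higher and Tipin lower after the inhibitor in both tissues. Of these 4, Clock and Per3 were also lower in the 14 labels that stand apart, which are mostly controls. Per2 differed by -0.16 and -0.26 between the 14 and the rest (limma adjusted p = 0.117 and 0.0629). Tipin differed by 0.07 and 0.03 (limma adjusted p = 0.432 and 0.713). Limma called 12 members higher and 4 lower in hippocampus (53.3% of members), where 40.0% of all genes were called (20.8% higher and 19.2% lower). In prefrontal cortex it called 11 higher and 1 lower (40.0% of members), where 37.8% of genes were called (19.7% higher and 18.1% lower). The share of members called in prefrontal cortex was thus near that of all genes. The arm difference was 0.08 ± 0.06 and 0.01 ± 0.07. Per3 in hippocampus ranged from 650.9 to 2084 (median 1308) in 24 control and from 1213 to 2141 (median 1903) in 24 inhibitor-treated libraries (0.47 ± 0.08, limma adjusted p = 0.000223). In prefrontal cortex it ranged from 817.3 to 2239 (median 1321) and from 893.5 to 2124 (median 1731), a difference of 0.28 ± 0.08 (limma adjusted p = 0.00608). Per2 ranged from 564.6 to 1395 (median 1001) and from 905.3 to 1591 (median 1274) in hippocampus (0.34 ± 0.07, adjusted p = 0.000963), and from 387.4 to 1673 (median 1155) and from 1044 to 2227 (median 1508) in prefrontal cortex (0.46 ± 0.10, adjusted p = 0.00154). The groups overlapped for both Per genes in both tissues, and for Per3 in prefrontal cortex the highest and the lowest value both belonged to controls.

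Tipin encodes the partner of TIMELESS in replication fork protection. It ranged from 194.7 to 374.5 (median 273.5) in control and from 186.8 to 317.9 (median 220.9) in inhibitor-treated hippocampus (-0.24 ± 0.06, limma adjusted p = 0.00185), and from 207 to 334.1 (median 279) and from 170.8 to 310.3 (median 234.9) in prefrontal cortex (-0.26 ± 0.06, adjusted p = 0.0014). Clock differed by 0.26 ± 0.07 (adjusted p = 0.00255) and 0.30 ± 0.07 (adjusted p = 0.00225). The other members called higher in both tissues were Rora (0.28 and 0.22), Fbxl21 (0.26 and 0.24), Gsk3b (0.16 and 0.22), Btrc (0.15 and 0.15), Hlf (0.12 and 0.13), Nr1d2 (0.12 and 0.12) and Fbxw11 (0.11 and 0.09). The sign of Fbxl21 turned in both tissues with a term for the split (-0.0012 and -0.0081) and with the 14 labels left out (-0.074 and -0.017), and that of Rora turned in prefrontal cortex with the term (-0.022). Fbxl21 in prefrontal cortex was not called without MIA control male 3 (adjusted p = 0.0536). Arntl2 (0.22) and Tef (0.10) were called higher in hippocampus and Prkaa2 (0.22) in prefrontal cortex, and Bhlhe40 (-0.14), Usp2 (-0.10) and Cry2 (-0.08) were called lower in hippocampus. The Usp2 call was lost on leaving out any 1 of 21 of the 48 libraries (adjusted p up to 0.0775), and the Cry2 call without saline control female 3 (adjusted p = 0.0503) or 4 (0.0515). Arntl (-0.08 and -0.03), Npas2 (-0.01 and 0.10), Per1 (-0.00 and 0.01), Nr1d1 (-0.05 and -0.08) and Dbp (-0.05 and 0.00) did not pass in either tissue. Beside these, 9 of 15 microglial markers were lower in hippocampus (median -0.14) and 10 of 15 in prefrontal cortex (median -0.18). Over the 8 groups their summed signal had medians of 12144 to 13069 in control and 11239 to 11981 in inhibitor-treated hippocampus, and of 12417 to 13093 and 11208 to 11991 in prefrontal cortex, with no marker at 0. Of the 15, 1 and 5 were lower with the 14 labels left out, against 0.0457% and 0.143% of all genes called in either direction. Their part in the clock gene differences was not tested.

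With a term for the split, limma called 1 member in hippocampus, Per3 (0.32, adjusted p = 0.0390), against 0.376% of genes, and 0 in prefrontal cortex, against 0.217%. With the 14 labels left out 0 members were called in both, against 0.0457% and 0.143%. Clock lost its difference in level: among libraries that do not stand apart its median was 3457 in control and 3456 in inhibitor-treated hippocampus, and 3605 and 3633 in prefrontal cortex. Per3 and Per2 kept the direction of their medians among these 12 control and 22 inhibitor-treated libraries, at 1437 and 1913 for Per3 and 1062 and 1314 for Per2 in hippocampus, and at 1418 and 1753 and 1144 and 1544 in prefrontal cortex. Tipin medians were 271.1 and 223.4 in hippocampus and 278.3 and 235 in prefrontal cortex. Averaged over strata without the 14 labels, the fitted differences in hippocampus and prefrontal cortex were 0.33 and 0.12 for Per3 (limma adjusted p = 0.123 and 0.735), 0.25 and 0.34 for Per2 (0.300 and 0.307), -0.16 and -0.21 for Tipin (0.402 and 0.356), and 0.04 and 0.06 for Clock (0.739 and 0.645). Clock thus lost most of its difference, while Per2, Tipin and, in hippocampus, Per3 lost the call and kept more of theirs.

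**Figure D4:**
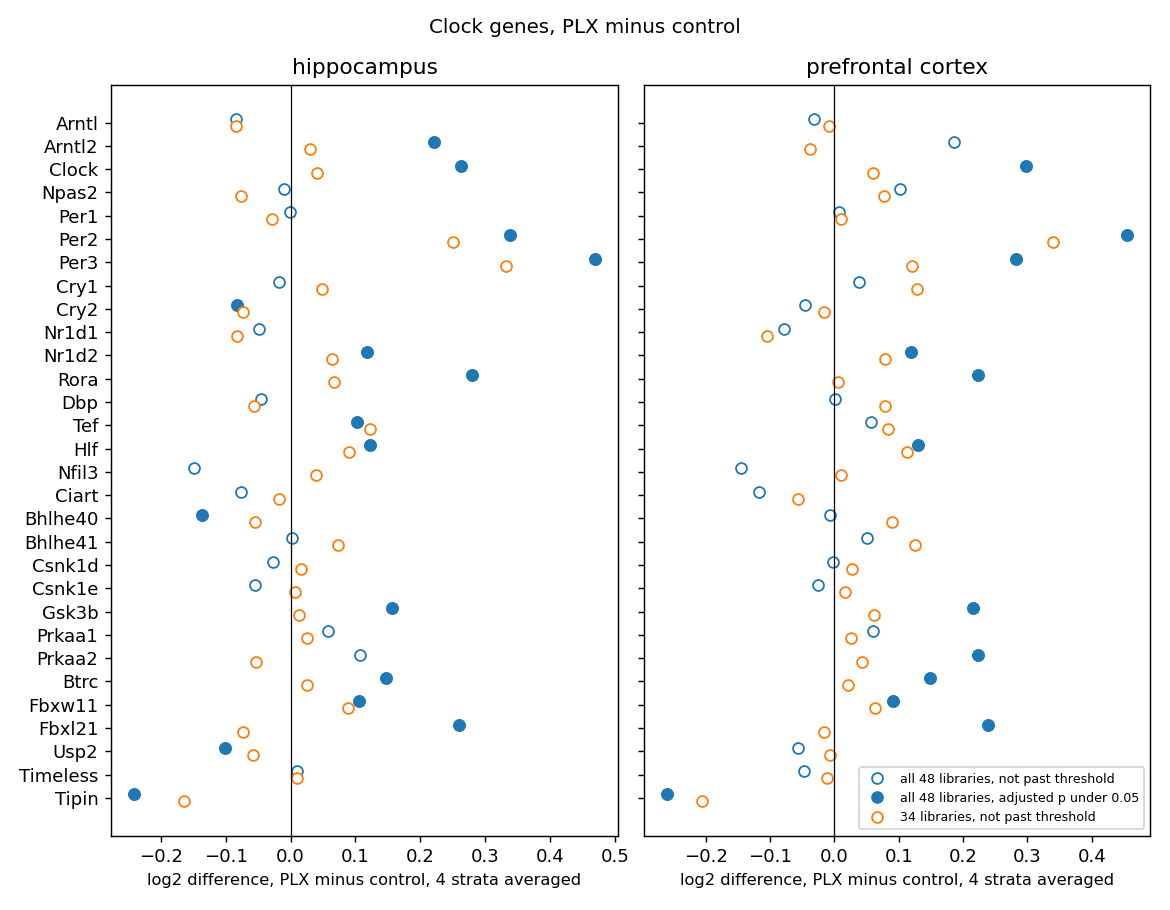
Log2 difference between inhibitor-treated and control libraries, averaged over 4 strata, for the 30 clock genes in each tissue, with all 48 libraries (blue; filled, adjusted p under 0.05) and with the 34 that do not stand apart (orange). Per3 at 0.47 in hippocampus and Per2 at 0.46 in prefrontal cortex are the largest with all libraries, and Clock moves towards 0 with the 34.

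Within single groups the inhibitor comparison called 0 members by limma in saline females (background 0.0301% in hippocampus and 0.0252% in prefrontal cortex), saline males (0.0251% and 0.338%) and MIA males (0.00502% and 0.0202%). In the same order, 5, 9 and 8 members in hippocampus had an unadjusted p under 0.05, against 22.7%, 20.2% and 28.2% of genes, and 3, 10 and 9 in prefrontal cortex, against 17.8%, 27.8% and 24.9%. EdgeR called 0 members throughout. DESeq2 called Clock, higher, and Ciart, lower, in prefrontal cortex of saline males and 0 members otherwise. The share of all genes that DESeq2 called there is not given here. In hippocampus the smallest p values were those of Per3 (0.45), Rora (0.43) and Tipin (-0.28) in saline females, of Bhlhe40 (-0.25), Cry2 (-0.17) and Clock (0.36) in saline males, and of Per3 (0.49), Clock (0.36) and Fbxl21 (0.47) in MIA males. In prefrontal cortex they were those of Fbxw11 (0.11), Clock (0.35) and Tipin (-0.23) in saline females, of Clock (0.45), Ciart (-0.66) and Fbxw11 (0.12) in saline males, and of Prkaa2 (0.35), Gsk3b (0.28) and Per3 (0.41) in MIA males. The corresponding arm differences were 0.06, -0.11 and 0.01 in hippocampus and -0.04, -0.30 and 0.01 in prefrontal cortex. No member passed the limma test of a difference between the sexes in the inhibitor effect (0 called, background 0.00% in both tissues; 1 and 2 at an unadjusted p under 0.05, against 4.94% and 4.54% of genes), with Ciart (0.40), Arntl (-0.17) and Bhlhe40 (0.16) leading in hippocampus and Ciart (0.50), Tef (0.16) and Csnk1d (0.09) in prefrontal cortex.

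The remaining contrasts also called 0 members by limma and by edgeR. MIA minus saline under the inhibitor had a background of 0.00% in all 4 strata. In hippocampus, 2 members had an unadjusted p under 0.05 in females and 0 in males, against 2.74% and 2.47% of genes, and in prefrontal cortex 1 and 1, against 5.35% and 2.89%. The smallest p values in hippocampus belonged to Bhlhe40 (0.21), Nfil3 (0.33) and Per3 (-0.29) in females and to Per1 (0.26), Arntl (0.14) and Bhlhe41 (-0.14) in males. In prefrontal cortex they belonged to Arntl2 (-0.34), Per3 (-0.27) and Bhlhe40 (0.17) in females and to Cry1 (-0.22), Nr1d1 (0.19) and Usp2 (0.17) in males. Arm differences of these strata were -0.16, -0.05, -0.01 and 0.05.

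Females minus males had a background of 0.246% in hippocampus and 0.141% in prefrontal cortex, with 2 members in each tissue at an unadjusted p under 0.05, against 7.85% and 6.05% of genes. Cry2, a core repressor, came nearest, at -0.10 in prefrontal cortex (limma adjusted p = 0.0559), where DESeq2 called it among 42 genes in all. Cry1 (-0.13) and Csnk1d (-0.05) followed there, and Rora (0.21), Cry2 (-0.07) and Per3 (-0.14) led in hippocampus. The interaction of inhibitor and MIA over both sexes had a background of 0.00% in both tissues. Its 0 members at an unadjusted p under 0.05 in hippocampus stood against 2.04% of genes, and its 8 in prefrontal cortex against 4.98%. It was led by Nfil3 (-0.30), Nr1d2 (0.13) and Ciart (0.30) in hippocampus and by Dbp (0.56), Nfil3 (-0.51) and Nr1d1 (0.23) in prefrontal cortex. The MIA effect compared between the sexes over both inhibitor arms had a background of 0.00502% and 0.00%, with 3 and 0 members at an unadjusted p under 0.05, against 4.08% and 2.39%. It was led by Dbp (-0.44), Nfil3 (0.44) and Prkaa1 (0.17) in hippocampus and by Arntl (0.18), Tipin (-0.16) and Cry1 (0.12) in prefrontal cortex.

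Within groups, clock genes varied together from library to library, and the hippocampal and prefrontal libraries of 1 label varied alike. Correlations are of deviations from a fit of group means with 1 common term for the split. They were taken in the 34 labels that do not stand apart and in the 14 that do, and are given as descriptions. Differences between groups can remain within each of these sets. The labels do not state that libraries sharing a label came from 1 animal. The arm difference correlated between the tissues with r = 0.60 (Spearman 0.68) over the 34 labels and r = 0.88 (Spearman 0.95) over the 14, and with r = 0.76 and r = 0.81 when the 2 labels farthest from the median in hippocampus were left out. Of the 30 members, 11 had an r over 0.5 in the 34 labels (36.7%), against 8.0% of 19366 genes, and 11 in the 14 labels, against 15.9%. The median r of the members was 0.32 and 0.48, against 0.16 and 0.19 over all genes. In the 34 labels r was 0.73 for Ciart, Per1 and Bhlhe40, 0.67 for Nfil3, 0.65 for Arntl, 0.61 for Usp2, 0.59 for Tipin, 0.57 for Bhlhe41, 0.54 for Dbp and Per3 and 0.53 for Nr1d1. It was 0.23 for Clock and 0.00 for Npas2, both activator genes.

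**Figure D5:**
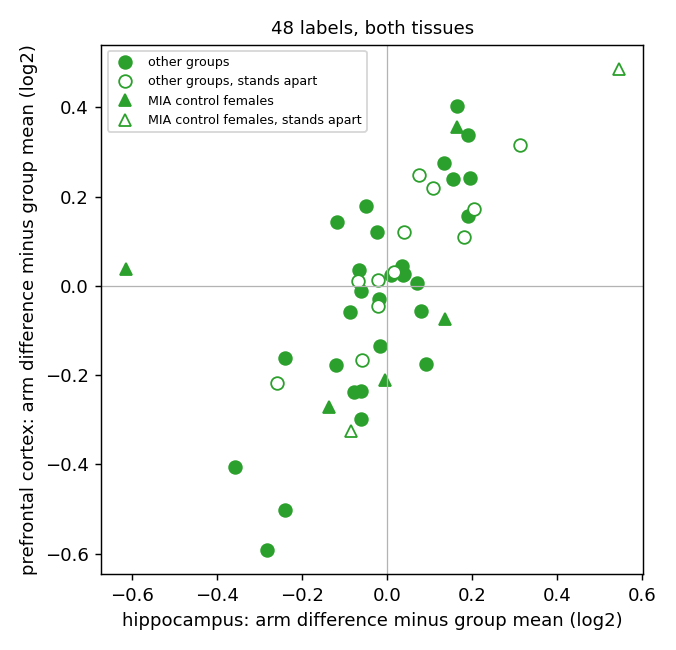
Deviation of the arm difference from its group mean in hippocampus (x axis) and prefrontal cortex (y axis), log2 units, 1 point for each of 48 labels; triangles are MIA control females and open symbols labels that stand apart. Most points lie along the rising diagonal, and 1 MIA control female lies far left of it.

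Several genes of the Per, Dbp and Nr1d arm, with Ciart and Bhlhe41, ran against Arntl within groups. Over the 34 hippocampal libraries, Per3 (r = -0.74) and Ciart (r = -0.73) had the most negative correlation with Arntl of 19365 other genes, Per2 (r = -0.63) ranked 7 and Bhlhe41 (r = -0.55) ranked 52. Over the 34 prefrontal libraries, Nr1d2 (r = -0.78), Ciart (r = -0.75) and Dbp (r = -0.74) held ranks 1 to 3, Bhlhe41 (r = -0.70) rank 5, Per3 (r = -0.68) rank 7 and Tef (r = -0.64) rank 12. Nfil3 went with Arntl there (r = 0.62), at rank 24 from the top. Over the 14 libraries that stand apart, Bhlhe41 (r = -0.81), Nr1d2 (r = -0.80) and Per2 (r = -0.80) held ranks 3 to 5 in hippocampus, and Bhlhe41 (r = -0.75), Dbp (r = -0.73), Ciart (r = -0.72) and Nr1d2 (r = -0.72) ranks 16, 25, 27 and 28 in prefrontal cortex. Not all genes of the arms took part: Nr1d1 correlated with Arntl at 0.07 in hippocampus and 0.14 in prefrontal cortex over the 34 libraries, Per1 at -0.32 and 0.0033, and Npas2 at -0.14 and 0.28. Over the 18 pairs of a gene from each arm, the median r was -0.37 in hippocampus (11 pairs negative) and -0.33 in prefrontal cortex (14 negative) over the 34, and -0.17 (14 negative) and -0.29 (15 negative) over the 14. Over the 15 pairs within the Per, Dbp and Nr1d arm it was 0.32 and 0.24 over the 34, and 0.39 and 0.54 over the 14. Arntl, Npas2 and Clock did not run together in hippocampus over the 34, where 2 of their 3 pairs were negative (median -0.14). The median of these 3 pairs was 0.28 in prefrontal cortex over the 34, and 0.38 and 0.19 over the 14. The points of 1 tissue share library and normalization.

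Ciart, whose promoter window holds 3 perfect E-boxes, is in neither arm, and its deviations ran with those of the arm difference in both tissues. Its r was 0.77 over the 34 and 0.80 over the 14 libraries in hippocampus, and 0.87 and 0.87 in prefrontal cortex. For Bhlhe41, with 1 E-box, r was 0.44 and 0.79 in hippocampus and 0.70 and 0.91 in prefrontal cortex, the last of these above that of Ciart. The other members outside the arms with an E-box were Cry1 and Tef. For Cry1 r was 0.19 and 0.63 in hippocampus and 0.46 and 0.45 in prefrontal cortex. For Tef it was 0.30 and -0.18, and 0.60 and 0.44. Cry2, without a match, had 0.51 and 0.18, and 0.54 and 0.49. Whether E-boxes go with these correlations was not tested. Ciart also ran with Dbp (r = 0.70 in hippocampus and 0.75 in prefrontal cortex over the 34, ranks 15 and 7 of all genes) and, in prefrontal cortex, with Per3 (r = 0.83, rank 1) and the deubiquitinase gene Usp2 (r = 0.78, rank 3). Over the 14, r with Dbp was 0.89 and 0.81. In prefrontal cortex it was 0.76 with Usp2 (rank 33) but 0.54 with Per3 (rank 619). In hippocampus Ciart and Per3 had an r of 0.64 over the 34 and of 0.11 over the 14.

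Further clock regulators, from a list of 38 genes of which 36 passed the filter, were read beside the members. After the inhibitor, averaged over strata, 13 were called higher and 6 lower in hippocampus (against 20.8% and 19.2% of all genes; median 0.05, against -0.00) and 14 higher and 5 lower in prefrontal cortex (against 19.7% and 18.1%; median 0.03, against -0.00). With a term for the split or with the 14 labels left out, 0 of the 36 were called in either tissue. They included the kinase gene Sik3 (0.15 and 0.17) and the splicing factor gene Sfpq (0.25 and 0.24), the coactivator genes Crebbp (0.25) and Ep300 (0.31) in hippocampus, the casein kinase gene Csnk1a1 (0.12) in prefrontal cortex, and, with the opposite sign, Rack1 (-0.23 and -0.24) and, in prefrontal cortex, the casein kinase 2 subunit gene Csnk2b (-0.20). Between the tissues in saline controls 6 were higher and 8 lower in hippocampus (median -0.00, against 0.02 over all genes), a share near the 40.5% of all genes called. Among them were Rorb (-1.09), which also marks cortical layers, Nampt (0.33), Cipc (-0.31) and Csnk1a1 (0.29). In MIA against saline control females, 0 of the 36 were called by limma, with 2 higher and 0 lower at an unadjusted p under 0.05 in each tissue.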

How the data were processed

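RNA was extracted with the miRNeasy Micro kit and libraries were made with the Illumina Stranded mRNA Ligation kit, per the labels' protocols. The submitters' processing notes name Trimmomatic, STAR 2.6.1d and the builds GRCm39 and mm39; the counting tool was not given in the sources used here. Values as deposited are a normalized signal, gene counts divided by a factor per library. Whole reads could be recovered from all 96 columns (100.0% of values whole within 0.01), and no columns were identical. The members and gene lists were chosen with earlier results of these data known.

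The main test was limma 3.58.1 (trend, two-sided) in R 4.3.3 on log2(signal + 1), with 8 group means per tissue or 16 over both, and Benjamini-Hochberg adjustment over all genes tested (19938 in hippocampus, 19841 in prefrontal cortex, 20620 over both). Genes needed a signal of 10 in 5 libraries. A member was called at an adjusted p under 0.05. Fold changes on this scale understate the change of low genes. The lowest signal of a member in any library was 56.4. Alternatives were edgeR 4.0.16 and DESeq2 1.42.0 on recovered reads, pseudocounts of 0.5 and 5, no filter, array weights, blocks, a term for the 14 labels that stand apart or their removal, and each library left out. The MIA effect by sex in controls and the inhibitor by MIA interaction in females were contrasts added after seeing the data. Scripts were tested on simulated data. Named with values are the 9 arm genes, each member past the threshold, otherwise the 3 with the smallest p, and, outside the members, the 5 genes per tissue nearest to the arm difference and called genes of fixed lists, of which 1 is not reported here. Further genes shown by library values (Nfil3, Ciart, Tef, Bhlhe41, Tipin) were chosen after their values were seen where that rule does not name them. Replicate numbers did not pair the samples (median correlation of same-numbered samples -0.004 in hippocampus and -0.003 in prefrontal cortex over 161 pairs each).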

Additional observations from a re-analysis of the deposited data

Results flagged for a closer look

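Libraries far from the others of their group were looked for in the 9 arm genes and the arm difference, 160 checks of groups in all, and 17 were found, in 14 libraries; chance gives about 1 in 20. Over all 30 members and the arm difference there were 49 in 496 checks. Of the 17, 6 fell in libraries that stand apart. Clock was low in saline PLX male 5 (2658 in hippocampus, the others 3379 to 3733, and 2719 in prefrontal cortex, the others 3565 to 3970), low in prefrontal cortex of MIA PLX female 6 (2346, the others 3328 to 4029), and high in MIA PLX male 2 (4151, the others 3412 to 3656). Saline PLX male 5 was also low for Npas2 in prefrontal cortex (1089, the others 1265 to 1380) and for Nr1d2 in both tissues (2902 in hippocampus, the others 3222 to 3405, and 3603 in prefrontal cortex, the others 4193 to 4471).

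Per1 was high in MIA PLX female 5 in both tissues (2501 in hippocampus, the others 1916 to 2060.4, and 3716 in prefrontal cortex, the others 2736 to 3004) and in hippocampus of MIA PLX male 3 (2809, the others 1935 to 2109). Per3 was low in saline PLX female 2 in both tissues (1475 in hippocampus, the others 1944 to 2116, and 1215 in prefrontal cortex, the others 1719.9 to 1989.8) and high in prefrontal cortex of saline control male 6 (2239, the others 1329 to 1556). In hippocampus Per2 was high in saline control female 3 (1395, the others 901.6 to 1016), Nr1d1 in saline PLX female 1 (3268, the others 1758 to 2202) and Dbp in MIA PLX male 6 (1096, the others 703.5 to 820.9). Nr1d2 was high in prefrontal cortex of saline PLX female 5 (4539, the others 3933 to 4148).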

How the results depend on the processing

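The labels give no collection time, and limma on 5 to 7 libraries a group limits what single groups show. Between the tissues limma, edgeR and limma with a term for the split each called 21 members, against 40.5%, 40.4% and 48.5% of genes. With the 14 labels left out 18 were called, against 30.1%. With the shared label as a block 22 were called, and the share of all genes is not given here. For the inhibitor average, edgeR and DESeq2 called 16 members in hippocampus and 12 in prefrontal cortex, as limma did. EdgeR called 39.6% and 37.4% of all genes there, and DESeq2 40.5% and 38.4%. With the term the counts were 1 and 0 (0.376% and 0.217% of genes), and with the 14 labels left out 0 and 0 (0.0457% and 0.143%). In MIA females the inhibitor contrast in hippocampus went from 0 to 2 with DESeq2, 1 with the term, 1 with the labels left out and 2 with array weights, and in prefrontal cortex to 1 with array weights. MIA in control females in hippocampus went from 0 to 3 with DESeq2 (0.0752% of genes) and 2 with the term (0.0502%). The MIA average in hippocampus went to 1 with DESeq2 (0.0502% of genes) and 2 with array weights (0.110%). In prefrontal cortex the count for the inhibitor in saline males went to 2 with DESeq2, where the share of all genes is not given here. For sex it went to 1 with DESeq2 (0.212% of genes) and to 1 with the term (0.237%). Array weights raised the calls over all genes as well: in hippocampus they gave 9 members for the inhibitor in saline females (27.7% of all genes), 9 in saline males (31.6%), 17 in MIA males (44.9%) and 21 for the average (58.2%), and in prefrontal cortex 12 in saline males (41.8%), 13 in MIA males (44.4%), 17 for the average (55.4%), 4 for sex (16.2%) and 4 for the inhibitor by sex (11.5%). Pooled over 48 labels, the correlation of the arm difference between tissues was 0.69, and within the 14 it was 0.88.

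Leaving out 1 library gave 0 to 1 called for MIA in control females in hippocampus (1 without MIA control female 4), 0 to 6 for the inhibitor in MIA males in hippocampus (6 and 3 without MIA control males 2 and 5), 0 to 1 for the inhibitor in MIA females in prefrontal cortex (1 without MIA control female 5), 0 to 2 in MIA males (1 and 2 without MIA control males 2 and 5) and 0 to 7 in saline males (5 without saline control male 6, 7 without saline PLX male 5), and 0 to 1 for sex. With all libraries, 28.2% of genes had an unadjusted limma p under 0.05 for the inhibitor in MIA males in hippocampus. In prefrontal cortex the shares were 24.9% in MIA males and 27.8% in saline males. The share of all genes called in each refit is not given here, so these counts are not read as a result about the members.

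In hippocampus of MIA females, the inhibitor difference of Npas2 was -0.0069 with edgeR, -0.0030 with DESeq2, -0.011 with the term, -0.0023 with array weights and -0.031 to 0.047 with 1 library left out, that of Per1 was -0.0091, -0.0051 and -0.096 with edgeR, DESeq2 and array weights and -0.087 to 0.092 with 1 left out, and that of Clock ran from -0.00079 to 0.168. In prefrontal cortex Clock was -0.014 with the term and -0.014 to 0.157 with 1 left out in MIA females. With the 14 labels left out, Clock was -0.017 for the inhibitor in saline females and -0.020 for MIA in control females, and Cry1 -0.019 for the MIA effect by sex. Among values called with all labels, Fbxl21 under the inhibitor (0.26 and 0.24) was -0.0012 in hippocampus and -0.0081 in prefrontal cortex with the term, and -0.074 and -0.017 with the labels left out (-0.075 in hippocampus of MIA males, where it was 0.47 and not called), and Rora in prefrontal cortex (0.22) -0.022 with the term. The cause was not tested. The replicate block (consensus correlation -0.0249 in hippocampus and -0.0234 in prefrontal cortex) left the counts of 16 and 12 and changed no other call.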

Other observations

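Outside the members, the genes whose deviations from group means lay nearest to those of the arm difference differed between the tissues. Each r is given for the 34 libraries that do not stand apart and then for the 14 that do, as a description. In hippocampus these genes were Kmt5c, a histone H4 methyltransferase (0.82 and 0.54), Sirt7, a nuclear deacylase (0.74 and 0.55), the splicing kinase gene Clk2 (0.76 and 0.49), the ribosomal S6 kinase gene Rps6kb2 (0.76 and 0.53) and Nrbp2 (0.72 and 0.65). In prefrontal cortex they were Mthfd1l, a mitochondrial enzyme of folate metabolism (0.81 and 0.61), the potassium channel subunit gene Kcns2 (-0.83 and -0.44), Gm11738 (0.66 and 0.89), L3mbtl3 (-0.66 and -0.67) and Gm9176 (0.60 and 0.83).

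Hormone- and state-dependent genes that feed into the clock were read from fixed lists. The share of all genes called after the inhibitor, averaged over strata, was 20.8% higher and 19.2% lower in hippocampus and 19.7% and 18.1% in prefrontal cortex. With a term for the split or with the 14 labels left out, 0 genes of the 3 lists below were called in either tissue. With all labels, of 16 glucocorticoid-responsive genes limma called 2 higher after the inhibitor in hippocampus and 3 in prefrontal cortex, namely Zbtb16 (0.48 and 0.61), Plin4 (1.14 and 1.10) and, in prefrontal cortex, Fkbp5 (0.28). Of 12 temperature and sleep-wake genes, the cold-inducible Cirbp was lower (-0.32 and -0.33) and the kinase gene Sik2 higher (0.53 and 0.60) in both tissues, Bdnf was lower in hippocampus (-0.09), and Homer1 (0.36) and Hspa1b (0.38) were higher in prefrontal cortex. Of 21 immediate early genes, 10 were called lower in hippocampus and 3 in prefrontal cortex, among them Nr4a1 (-0.46 and -0.35) and Dusp1 (-0.41 and -0.33). Between the tissues in saline controls, where 20.9% of all genes were higher and 19.6% lower in hippocampus, 4 immediate early genes were higher and 11 lower in hippocampus, 7 glucocorticoid-responsive genes higher and 1 lower, and 2 temperature and sleep-wake genes higher and 3 lower.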
